A study of Mus musculus with 92 samples.

Results

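CTCF, the zinc-finger protein that marks insulators and loop anchors, was mapped in cultured mouse germline stem cells (GSC) that retained either STAG1 or STAG2 as their remaining STAG subunit of cohesin. The peaks described here are the CTCF peaks called in one of these genotypes with no overlapping peak in the other. On chromosomes 1 to 19, 2495 of 39406 peaks of the STAG1-only list (6.33%) and 1540 of 38494 peaks of the STAG2-only list (4.00%) were of this kind, 4035 peaks in all. They were chosen by overlap of at least 1 bp between both lists, and chromosomes X and Y were left out. They are called STAG1-only-specific and STAG2-only-specific below, and the remaining 36911 and 36954 peaks are called shared. Since presence in both lists defined the classes, these counts are a description with no test.

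STAG1-only cells carried the genotype Stag2Stag3dKO, which lacks STAG2 and STAG3, and STAG2-only cells carried Stag1Stag3dKO, which lacks STAG1 and STAG3. Both groups thus also lacked STAG3, the STAG subunit best known from germ cells. The other CTCF lists came from Stag3KO cells, which lack STAG3 alone, and from STAG3-only cells (Stag1Stag2dKO), with 42179 and 39938 autosomal peaks. All 4 genotypes were GSC of the line AAG, which carries the reporters Acrosin-EGFP and beta-Actin-EGFP, sorted for the AAG signal. Each list had been called on 2 pooled libraries, so there was a single list for a genotype and its values have no replicate error. The labels do not say how many clones a genotype stands for. Wild-type GSC of the same line had 2 Stag1, 3 Stag2 and 3 Stag3 lists, each called on 1 library, and no wild-type CTCF list was analysed here. Peaks do not measure RNA, so neither the identity of the cells nor the loss of the deleted genes could be checked with them. The sequencing depth behind each list is unknown here, and the absence of a call does not show that CTCF was absent. Intervals given below cover counting error only.

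Cohesin is a ring-shaped complex that extrudes loops of chromatin and holds sister chromatids together. Loop extrusion tends to halt where CTCF is bound to its motif in the matching orientation, and cohesin accumulates there. STAG1 and STAG2 are alternative subunits of the complex in dividing cells, and STAG3 is their germline counterpart. CTCF itself binds DNA through its zinc fingers, many sites lie away from genes, and its promoter sites are often rich in CG.

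Promoters under list-specific peaks are shown first, since they let the sequence be read beside the call. A promoter here is the stretch from 250 bp before to 50 bp after a RefSeq start site on GRCm38.p6, whose chromosomes share coordinates with mm10. Those printed have the peak's summit inside the window. For each direction they are the promoter with the highest fold enrichment without a motif match and the 2 with the highest fold enrichment that hold one, with predicted genes left out. The match was to the core of the CTCF motif, CCANNAG followed directly by NNGGC, with N for any base, searched on both strands and set in capitals. Positions count from 1 at the 5′ end of the printed strand. Asb1 (a SOCS-box protein gene), Ddb1 (an adaptor of a ubiquitin ligase that senses DNA damage) and Mgat1 (an enzyme that builds N-glycans) had STAG1-only-specific peaks. Taco1 (an activator of mitochondrial translation), Gpbp1l1 (a promoter-binding protein-like gene) and Stoml2 (a mitochondrial membrane protein gene) had STAG2-only-specific peaks.
Asb1, chr1:91540315-91540614, plus strand: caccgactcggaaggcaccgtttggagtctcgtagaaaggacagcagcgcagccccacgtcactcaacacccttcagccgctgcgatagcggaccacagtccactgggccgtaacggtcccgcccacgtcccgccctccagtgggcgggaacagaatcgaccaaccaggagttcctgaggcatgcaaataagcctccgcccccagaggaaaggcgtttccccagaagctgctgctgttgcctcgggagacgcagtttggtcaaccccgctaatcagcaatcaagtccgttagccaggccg
Ddb1, chr19:10605347-10605646, plus strand: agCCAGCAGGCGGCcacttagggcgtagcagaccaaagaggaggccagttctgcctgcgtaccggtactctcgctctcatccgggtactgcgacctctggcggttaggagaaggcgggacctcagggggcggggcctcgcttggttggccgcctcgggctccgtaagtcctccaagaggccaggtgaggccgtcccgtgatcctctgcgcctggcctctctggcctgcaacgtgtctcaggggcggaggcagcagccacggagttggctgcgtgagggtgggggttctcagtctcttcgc
Mgat1, chr11:49243941-49244240, plus strand: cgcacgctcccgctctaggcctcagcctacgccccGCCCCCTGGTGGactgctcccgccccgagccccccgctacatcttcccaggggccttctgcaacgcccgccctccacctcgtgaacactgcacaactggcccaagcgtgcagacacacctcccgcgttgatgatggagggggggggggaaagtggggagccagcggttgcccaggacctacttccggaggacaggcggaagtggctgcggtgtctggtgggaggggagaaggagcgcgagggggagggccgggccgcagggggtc
Taco1, chr11:106065841-106066140, plus strand: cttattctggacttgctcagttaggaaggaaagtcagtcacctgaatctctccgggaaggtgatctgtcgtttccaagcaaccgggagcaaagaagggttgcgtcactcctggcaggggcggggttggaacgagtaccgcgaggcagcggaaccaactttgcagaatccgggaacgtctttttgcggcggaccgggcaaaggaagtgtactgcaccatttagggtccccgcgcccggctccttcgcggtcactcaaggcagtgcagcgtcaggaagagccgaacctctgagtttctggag
Gpbp1l1, chr4:116557408-116557707, plus strand: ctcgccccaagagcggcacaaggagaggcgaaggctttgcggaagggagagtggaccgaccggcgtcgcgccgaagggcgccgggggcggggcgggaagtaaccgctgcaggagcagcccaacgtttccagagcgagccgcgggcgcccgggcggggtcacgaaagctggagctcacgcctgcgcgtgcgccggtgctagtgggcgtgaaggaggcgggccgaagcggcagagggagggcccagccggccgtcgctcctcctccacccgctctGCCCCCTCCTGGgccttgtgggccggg
Stoml2, chr4:43031335-43031634, minus strand: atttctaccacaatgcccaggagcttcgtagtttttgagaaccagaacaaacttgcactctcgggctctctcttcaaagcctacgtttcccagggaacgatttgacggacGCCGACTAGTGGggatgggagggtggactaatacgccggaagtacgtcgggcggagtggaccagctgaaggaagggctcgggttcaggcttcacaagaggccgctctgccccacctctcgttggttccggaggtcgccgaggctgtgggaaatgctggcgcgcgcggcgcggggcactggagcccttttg
The match in Ddb1 spans positions 3 to 14 and its summit lies at position 106, whereas in Mgat1 the match spans positions 36 to 47 and the summit lies at 51. In Gpbp1l1 the match spans 274 to 285 with the summit at 293, and in Stoml2 it spans 111 to 122 with the summit at 180. The middle of the match thus lay 10 bp from the summit in Mgat1, 14 bp in Gpbp1l1, 64 bp in Stoml2 and 98 bp in Ddb1.

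Of the 144 promoters overlapped by a STAG1-only-specific peak, 9 held the motif (6.25%, 95% Wilson interval 3.32 to 11.5). Of the 70 promoters overlapped by a STAG2-only-specific peak, 6 did (8.57%, 3.99 to 17.5). Promoters under shared peaks held it in 13% (11.6 to 14.6) of 2064 cases in the STAG1-only list and in 13.4% (12 to 15) of 1994 in the STAG2-only list. Of all 31396 autosomal promoters 2.47% held the motif, and of those with no peak of either list 1.69%. The STAG1-only-specific interval ended just below that of shared promoters (11.5 against 11.6) and lay above that of all promoters. The STAG2-only-specific interval overlapped the shared one. Promoter windows repeat within genes (the 144 belong to 138 genes), so these intervals are somewhat too narrow. Shared promoters were not matched for fold enrichment. The median GC content was 65.3% under STAG1-only-specific and 63.7% under STAG2-only-specific peaks, 61.7% under shared peaks of either list and 53.0% over all promoters. Other forms of the CTCF motif were not searched, and sequence outside promoters was not used here.

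List-specific peaks lay mostly among the weak peaks of each list. Fold enrichment is the authors' value at a peak's summit over the local background, and is used only within a list. Its median was 4.93 for STAG1-only-specific peaks, against 21.8 for shared peaks of the same list. In the STAG2-only list the medians were 4.94 and 19.8. When each list was ordered by fold enrichment, 96.9% of the STAG1-only-specific and 99.6% of the STAG2-only-specific peaks fell in its lowest 25%. Most weak peaks were still shared. The lowest 25% held 7434 shared and 2418 list-specific peaks in the STAG1-only list, and 8090 and 1534 in the STAG2-only list. In the lowest 10% of each list, 1563 of 3941 STAG1-only peaks (39.7%) and 1150 of 3850 STAG2-only peaks (29.9%) had no counterpart. The next 10% gave 18.3% and 9.28%, and the third gave 4.57% and 0.831%. Above the sixth such step in the STAG1-only list, and above the fourth in the STAG2-only list, 0 peaks were list-specific.

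**Figure D1:**
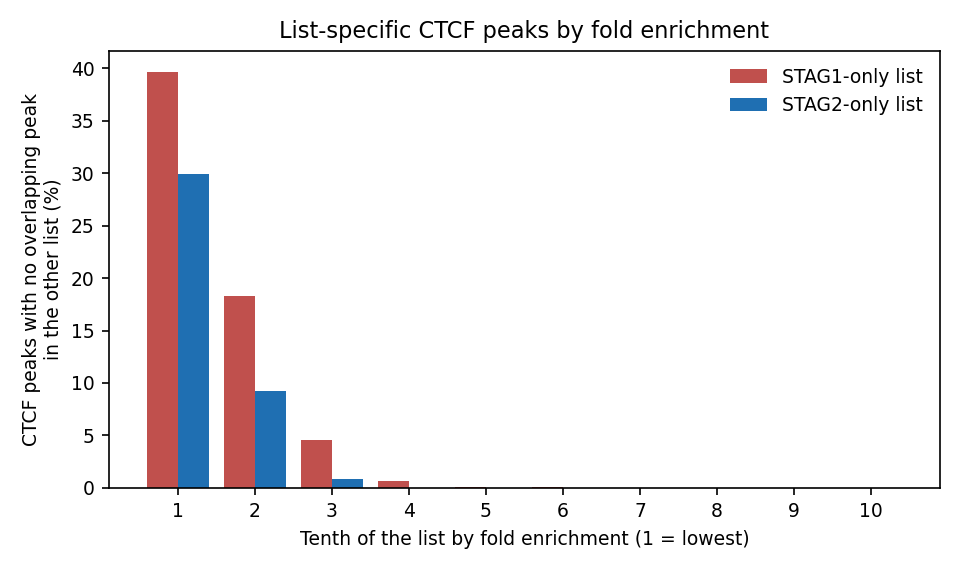
Share of CTCF peaks with no overlapping peak in the other list (y axis, %), by steps of 10% of the peak's own list ordered by fold enrichment (x axis, 1 is the lowest), with STAG1-only peaks in red and STAG2-only peaks in blue. Bars fall from 39.7% and 29.9% in the lowest step to 4.57% and 0.831% in the third.

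The list-specific peaks were also narrower, and few lay close to a peak of the other list. Median widths were 231 bp for STAG1-only-specific and 223 bp for STAG2-only-specific peaks, against 414 and 396 bp for shared ones. Median −log10 q was 12.8 and 11.8, against 275 and 201. The median distance to the nearest peak of the other list was 14299 bp for STAG1-only-specific and 13652 bp for STAG2-only-specific peaks, and 75 (3.01%) and 40 (2.60%) lay within 500 bp of one. At the edge of the rule, the closest list-specific peak lay 23 bp from a peak of the other list, and the smallest overlap of a shared peak was 8 bp in the STAG1-only list and 28 bp in the STAG2-only list. In each list, 1 specific peak lay within 50 bp of the other list and 1 shared peak overlapped by at most 50 bp, so few peaks sat near the boundary.

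Lists of equal length cannot decide whether the larger share of list-specific peaks in the STAG1-only list depends on list length. Shared peaks pair off almost singly between the lists, so lists of the same length must give close shares. With each list reduced to its 30795 peaks of highest fold enrichment (80% of the shorter list), 4.30% of STAG1-only and 4.22% of STAG2-only peaks had no counterpart. These are largely other peaks than before: 1187 of 1325 (89.6%) in the STAG1-only list and 1267 of 1301 (97.4%) in the STAG2-only list overlapped a peak that the other genotype did have in its full list, below the limit.

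The other genotypes, which did not enter the choice of peaks, held many of these sites. Of the STAG1-only-specific peaks, 1710 (68.5%, 66.7 to 70.3) overlapped a Stag3KO peak and 1049 (42.0%, 40.1 to 44.0) a STAG3-only peak. Of the STAG2-only-specific peaks, 918 (59.6%, 57.1 to 62.0) overlapped a Stag3KO peak and 986 (64.0%, 61.6 to 66.4) a STAG3-only peak. The gap between both genotypes was thus 26.5 percentage points towards Stag3KO for STAG1-only-specific peaks, and −4.42 points for STAG2-only-specific peaks. Shared peaks overlapped the Stag3KO list in 99.0% and the STAG3-only list in 97.2% of cases. Shared peaks among the lowest 25% of the STAG1-only list still did so in 95% and 89.2%, above the list-specific ones. In the lowest 10% of the STAG1-only list, 58.3% of list-specific and 88.9% of shared peaks were called in Stag3KO cells, and 39.0% and 83.8% in STAG3-only cells. In that of the STAG2-only list, the shares were 53.8% and 90.0%, and 58.4% and 78.7%. List-specific peaks thus recurred less often than shared ones within the same step of fold enrichment, without a test. Shared peaks had been chosen by a call in a second list and list-specific ones by its absence, so this contrast is partly set by the choice. A step also spans a range of fold enrichment, 1.61 to 5.38 in the lowest of the STAG1-only list, so strength was not matched within it. With lists of equal length, the gap was 18.5 points for STAG1-only-specific peaks and turned to 2.31 points for STAG2-only-specific ones. Each genotype has 1 list and the lists differ in length, so these shares have no replicate check.

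By pattern, 813 STAG1-only-specific peaks (32.6%) were called in both other genotypes, 897 (36.0%) in Stag3KO and not in STAG3-only cells, 236 (9.46%) in STAG3-only and not in Stag3KO cells, and 549 (22.0%) in neither. Among STAG2-only-specific peaks, 682 (44.3%) were called in both, 236 (15.3%) in Stag3KO and not STAG3-only cells, 304 (19.7%) in STAG3-only and not Stag3KO cells, and 318 (20.6%) in neither. Absence from the STAG2-only list alone was thus the pattern of 32.6% of STAG1-only-specific peaks, and absence from the STAG1-only list alone that of 44.3% of STAG2-only-specific peaks. Peaks found in 1 genotype of 4 made up close shares of both classes, 22.0% (20.4 to 23.7) and 20.6% (18.7 to 22.7). Within the STAG1-only-specific class, the gene-end share was 18.8% for peaks called in both other genotypes, 16.2% for those in Stag3KO and not STAG3-only cells, 30.5% for those in STAG3-only and not Stag3KO cells, and 27% for those in neither. In the STAG2-only-specific class these shares were 15.8%, 19.1%, 20.7% and 21.1%. The median fold enrichment also varied between these patterns. It was 4.64 for peaks in neither genotype and 5.23 for those in both in the STAG1-only list, and 4.61 and 5.10 in the STAG2-only list.

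**Figure D2:**
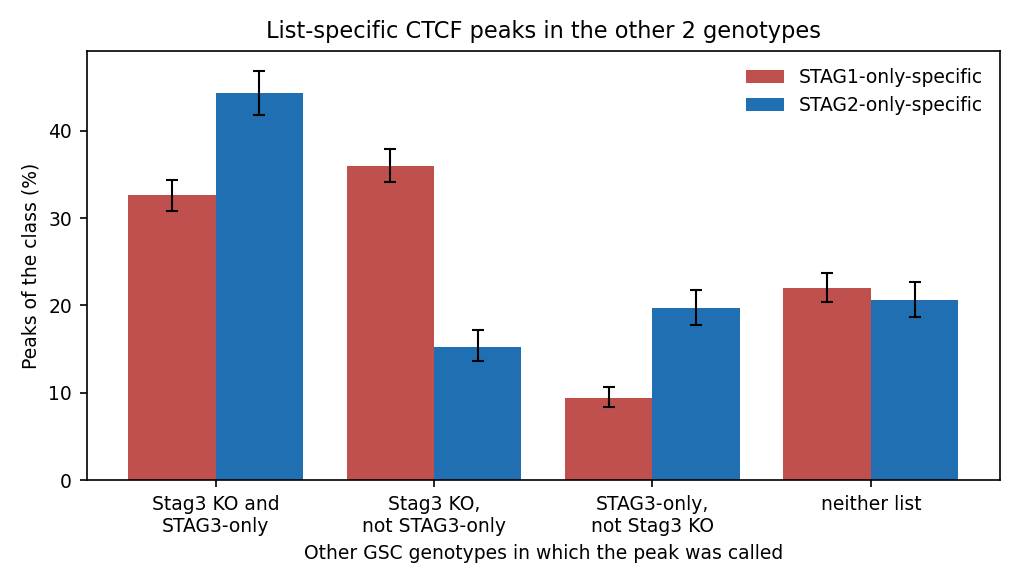
Share of each class of list-specific CTCF peaks (y axis, %) by the other GSC genotypes in which a peak was called (x axis), with 95% Wilson intervals that cover counting error only. Peaks called in Stag3KO and not in STAG3-only cells made up 36.0% of STAG1-only-specific and 15.3% of STAG2-only-specific peaks.

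Taken over each whole list, list-specific peaks lay at gene ends about as often as shared ones. Gene ends are here the stretches within 2500 bp of the first or last base of a protein-coding gene. They mix promoters with 3′ ends, since the gene table gives no strand. Such windows cover 6.99% of the chromosomal span. They held 518 of 2495 STAG1-only-specific peaks (20.8%, 19.2 to 22.4), 283 of 1540 STAG2-only-specific peaks (18.4%, 16.5 to 20.4) and 19.2% (18.8 to 19.6) of shared peaks of either list. The intervals of both list-specific classes include the shared value. The difference between them, 2.38 points, turned to −2.74 points with lists of equal length, where the shares were 15.0% and 17.8%. Gene bodies, which cover 40.0% of the span, held 49.7% (47.8 to 51.7) of STAG1-only-specific and 50.5% (49.9 to 51.0) of shared peaks of the STAG1-only list. They held 55.0% (52.5 to 57.5) of STAG2-only-specific and 50.4% (49.9 to 50.9) of shared peaks of the STAG2-only list, intervals that do not overlap. Over the whole lists, promoter windows were overlapped by 5.13% (4.33 to 6.07) of STAG1-only-specific and 3.70% (2.87 to 4.77) of STAG2-only-specific peaks. For shared peaks of the STAG1-only list the share was 4.79% (4.58 to 5.01).

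The gene-end share fell more steeply with fold enrichment among list-specific peaks than among shared ones. In the lowest 10% of the STAG1-only list, 25% of list-specific and 23.3% of shared peaks lay at gene ends. In the next 10% the shares were 15.1% and 20.8%, and in the third 8.33% and 20.1%. Past its own lowest 10%, the STAG2-only list gave 14.3% and 20.6%, then 6.25% and 18.9%, the last from 32 list-specific peaks. In the second and the third step, list-specific peaks thus lay at gene ends less often than shared peaks of like fold enrichment in both lists, without a test.

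Among 20661 autosomal protein-coding genes, 6903 (33.4%) had a peak of both lists at an end, 437 (2.12%) a STAG1-only peak and no STAG2-only peak, and 207 (1.00%) the reverse. With lists of equal length, a setting that by its construction tends to bring both counts together, they were 210 and 221. Of the 437 genes, 270 (61.8%) had a Stag3KO peak at an end and 201 (46.0%) a STAG3-only peak. Of the 207 genes, 120 (58.0%) had a Stag3KO peak and 120 a STAG3-only peak. Over all genes these shares were 36.6% and 35.6%, and over genes with peaks of both lists 99.1% and 97.8%. A peak in 1 list only is a difference between calls, and a link to the expression of the gene was not measured.

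Here and in the next paragraph genes were named by the peak, so a named gene can also have an end peak of the other list. The named genes of the STAG1-only list are those next to its 12 list-specific gene-end peaks of highest fold enrichment. The highest was at Epm2a, which encodes the glycogen phosphatase laforin, with a fold enrichment of 16.0 (chr10:11457487-11457810, 1854 bp from a gene end and inside the gene). It was followed by Npbwr1, a neuropeptide receptor gene (11.4, chr1:5915359-5915656), Chrna7, which encodes a nicotinic receptor subunit (11.1, chr7:63100531-63100852), and Wee2, a kinase that keeps oocytes in meiotic arrest (10.0, chr6:40465769-40466060). All 4 peaks were called in Stag3KO cells too, and of them the Wee2 peak was also called in STAG3-only cells. Htr1b, a serotonin receptor gene, had 9.98, Bbof1, a ciliary basal body gene, 9.87, Syt15, a synaptotagmin gene, 9.27, and Asb1 8.67. Slc35g3, a solute carrier gene, also had 8.67, Shisa5, a gene of programmed cell death, 8.52, Fryl, a furry-like gene, 8.22, and Trim43a, a TRIM-family gene, 8.07. All 12 peaks recurred in Stag3KO cells, and those of Wee2, Htr1b, Bbof1 and Trim43a, 4 of 12, also in STAG3-only cells. None of the 12 overlapped a wild-type Stag1 or Stag2 peak, and the peak at the Asb1 promoter overlapped a Stag3 peak in 3 of 3 lists.

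In the STAG2-only list, the highest of the 12 list-specific gene-end peaks had 8.07, at Tbc1d31, a centrosomal protein gene (chr15:57970292-57970623, 224 bp from the gene). Myof, which encodes the membrane-repair protein myoferlin, had 7.57 (chr19:38043752-38044015), Taco1 7.24, and Tek, the angiopoietin receptor gene, 7.08. Fam32a also had 7.08, Lrrc4c, a synaptic adhesion gene, 6.75, and Gpbp1l1 6.75. Wars, the tryptophan tRNA synthetase gene, H4c6, a histone gene, Dtwd2, a tRNA-modifying enzyme gene, and Rpl34, a ribosomal protein gene, each had 6.42. Dll1, a Notch ligand gene, had 6.26. Of these 12 peaks, all but that of Dtwd2 were called in both Stag3KO and STAG3-only cells, so they were absent from the STAG1-only list alone. The Taco1 peak overlapped a wild-type Stag3 peak in 3 of 3 lists, and those of Gpbp1l1 and H4c6 in 2 of 3 Stag3 lists and 1 of 3 Stag2 lists. The other 9 overlapped no wild-type GSC list.

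Away from gene ends, the list-specific peak of highest fold enrichment in the STAG1-only list lay inside Myo3b, a myosin gene, with 24.1 (chr2:70146959-70147415, 108 kb from the gene's end), and was called in Stag3KO but not in STAG3-only cells. The next in that list had 21.1 and lay 588 kb from the nearest protein-coding gene end, that of Adam6a, a gene needed for sperm function (chr12:114134869-114135442). It was called in both other genotypes and overlapped a Stag2 peak in 3 of 3 wild-type lists. A peak inside Plcb4, a phospholipase gene, had 16.6. Of the STAG2-only list, whose distal peak of highest fold enrichment is not reported here, a peak near Calcoco1, an autophagy receptor gene, had 9.88, and one inside Cdh13, a cadherin gene, had 9.55. The distal peaks named here were all called in Stag3KO cells.

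Genes of the cohesin machinery were read next, against 33.4% of all genes with an end peak of both lists, 2.12% with a STAG1-only peak alone and 1.00% with a STAG2-only peak alone. Stag1 and Stag3 had no CTCF peak at an end in any of the 4 lists, and 3 and 1 peaks in the gene body in each. Rad21, the kleisin that closes the cohesin ring, had none at either place. Ctcf had 1 end peak in each list. Of the 21 genes of the cohesin and CTCF list, 7 had a peak of both lists at an end, 13 of neither, and 1 a STAG1-only peak alone. That gene was Nipbl, the cohesin loader, with a peak of fold enrichment 5.23 at 1975 bp from its end, also called in Stag3KO cells and not in STAG3-only cells. Stag2 lies on chromosome X and was left out.

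In each germ-cell list, 0 to 3 genes had an end peak of 1 list alone. Over all genes 2.12% had a STAG1-only and 1.00% a STAG2-only peak alone, and the lists were not tested against these shares. Of 23 spermatogonial genes, Lhx1, a transcription factor of stem spermatogonia, and Lin28a, an RNA-binding protein of undifferentiated cells, had a STAG1-only peak alone (4.04 and 5.68), and Itgb1, an integrin gene, a STAG2-only peak alone (4.28). The Lin28a peak recurred in both other genotypes and the Lhx1 peak in neither. The Lin28a peak lay 1297 bp from that gene but nearer, at 0.831 kb, to an end of Dhdds, which also had a STAG1-only peak alone. Of 24 meiotic genes, 9 had peaks of both lists, and Msh5, a crossover factor gene, had a STAG2-only peak alone (5.43). Of 23 piRNA and germline genes, 8 had peaks of both, and Pld6, a mitochondrial factor of piRNA biogenesis, a STAG1-only peak alone (5.83) that overlapped its promoter and a Stag3 peak in 3 of 3 lists. Of 34 imprinted genes, 12 had peaks of both lists and 0 of 1 list alone. Of 19 genes of core and naive pluripotency, Tfcp2l1, a naive-state factor with its peak on the promoter (5.38), Sall1, a zinc-finger gene (4.34), and Utf1, a chromatin factor (3.89), had a STAG1-only peak alone. Of these 3, the Tfcp2l1 peak was the one called in other genotypes, and it overlapped 2 of 3 Stag2 and 2 of 3 Stag3 lists.

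Gene clusters and large families differed in how many members had an end peak at all, against 33.4% of all genes with peaks of both lists, 2.12% with a STAG1-only and 1.00% with a STAG2-only peak alone. Of 57 clustered protocadherin genes, whose promoters are chosen through CTCF and cohesin, 52 had a peak of both lists at an end, and Pcdha9 (3.52) and Pcdhb13 (4.79) a STAG1-only peak alone. Of 39 Hox genes, 22 had peaks of both, and Hoxb13 (5.43) and Hoxc13 (5.76), the genes at the 5′ ends of their clusters, a STAG2-only peak alone. The Hoxb13 peak was called in both other genotypes and the Hoxc13 peak in neither. They overlapped 2 and 3 of 3 wild-type Stag2 lists and 0 Stag1 or Stag3 lists. Among 95 ribosomal protein genes, 53 had peaks of both and Rpl34 and Rpl23a (4.61) a STAG2-only peak alone. Among 67 histone genes, 11 had peaks of both, 3 a STAG1-only peak alone and 4 a STAG2-only peak alone. Histone genes are crowded: the 3 (H2bc23, H2ac23 and H4c17) shared 1 peak of 4.19, and of the 4, H2bc7, H2ac7 and H3c4 shared 1 peak of 4.12 while H4c6 had its own. Of 1104 olfactory receptor genes, 30 had peaks of both, 4 a STAG1-only and 2 a STAG2-only peak alone. Fibroblast feeder and Sertoli genes, which mark other cells that a GSC culture could hold, had 6 of 12 and 2 of 9 with peaks of both lists and 0 with a peak of 1 list alone. Over all 13 lists, 16 of 1526 genes had a STAG1-only and 12 a STAG2-only peak alone.

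In wild-type GSC, list-specific CTCF sites seldom carried a called cohesin peak, and the mean overlap was highest with Stag3. Of the STAG1-only-specific peaks, 0.160% and 0.281% overlapped the Stag1 lists, 4.65%, 1.36% and 5.29% the Stag2 lists, and 3.57%, 11.7% and 12.5% the Stag3 lists, in the order of the replicates. For STAG2-only-specific peaks the shares were 0.325% and 0.260% for Stag1, 4.55%, 1.10% and 3.44% for Stag2, and 1.95%, 6.23% and 7.34% for Stag3. Shared peaks reached 25.4% and 27.9% for Stag1, 43.1%, 31.2% and 42.2% for Stag2, and 19.4%, 38.5% and 39.6% for Stag3, and lay above both list-specific classes in each of the 8 lists. At least 1 Stag3 list overlapped 369 STAG1-only-specific peaks (14.8%) and 131 STAG2-only-specific peaks (8.51%), and at least 1 Stag1 list 9 (0.361%) and 6 (0.390%). The lists differ in length, from 9497 and 10560 peaks for Stag1 to 38281 and 39322 for Stag3 replicates 2 and 3, and Stag3 replicate 1, with 12771 peaks, gave the lowest of the Stag3 shares. The part of list length in these shares was not tested.

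Weak shared peaks had values nearer to those of the list-specific classes. Shared peaks in the lowest 25% of the STAG1-only list overlapped Stag1 lists in 2.00% ± 0.438 of cases (SD, n = 2), Stag2 lists in 8.04% ± 3.32 (SD, n = 3) and Stag3 lists in 10.0% ± 5.44 (SD, n = 3). STAG1-only-specific peaks had means of 0.220% ± 0.0850, 3.77% ± 2.11 and 9.29% ± 4.97 over the same lists, and STAG2-only-specific peaks 0.292% ± 0.0459, 3.03% ± 1.76 and 5.17% ± 2.85. Read within each Stag3 list, STAG1-only-specific peaks gave 3.57%, 11.7% and 12.5% and weak shared peaks of the STAG1-only list 3.74%, 12.8% and 13.5%, so the list-specific share was slightly lower in 3 of 3 lists. STAG2-only-specific peaks gave 1.95%, 6.23% and 7.34% and weak shared peaks of the STAG2-only list 3.54%, 12.1% and 12.9%, a wider gap in the same direction in 3 of 3 lists. These gaps were not tested. In the lowest 10%, the mean Stag3 share was 12.1% for STAG1-only-specific and 9.78% for shared peaks, and in the next 10% 4.89% and 9.36%.

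**Figure D3:**
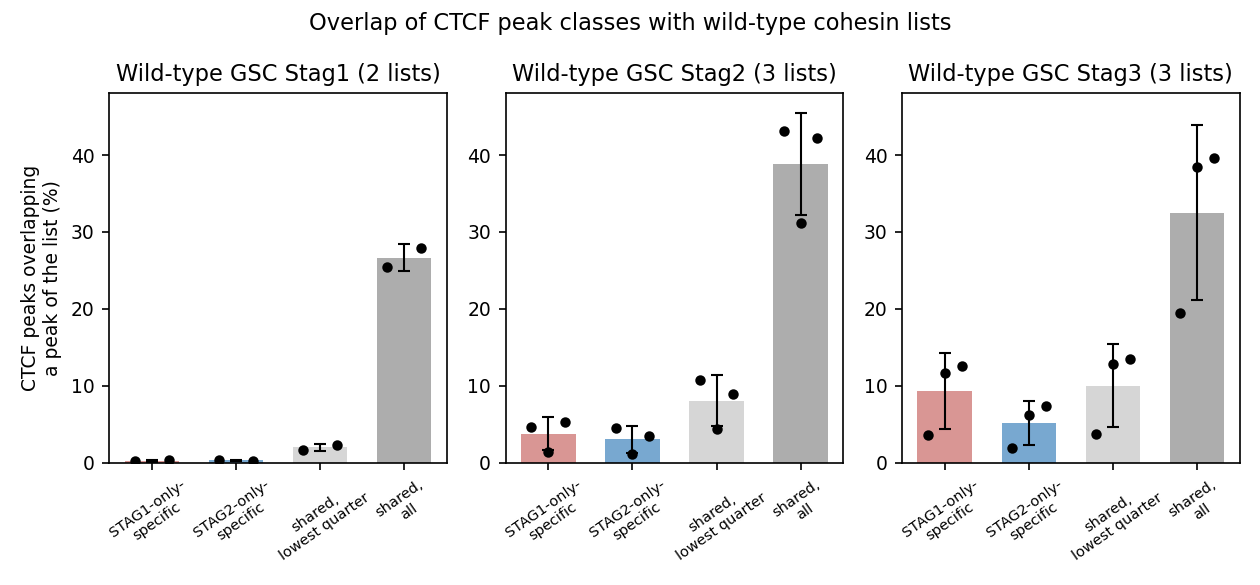
Share of CTCF peaks that overlap a peak of a wild-type GSC list (y axis, %), for STAG1-only-specific, STAG2-only-specific, weak shared (lowest 25%) and all shared peaks (shared peaks as in the STAG1-only list), with 1 panel per antibody. Points are lists, bars their mean and lines the SD. For Stag3 the STAG1-only-specific mean is 9.29% and that of weak shared peaks 10.0%.

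The Stag3 share was higher for STAG1-only-specific than for STAG2-only-specific peaks in 3 of 3 lists, by 1.62 to 5.51 points (mean 4.11). The mean difference was 0.737 points for Stag2 and −0.0718 points for Stag1. The difference for Stag3 was set against that for Stag2 and for Stag1 (two-sided exact permutation test over lists, p = 0.200 for each, 0.200 after Benjamini-Hochberg adjustment over 3 comparisons). With so few lists these tests could not fall below 0.200 against Stag1 and 0.100 against Stag2. They therefore could not decide whether the antibodies differ. With CTCF lists of equal length the Stag3 difference turned to −1.46 points, with 6.87% of STAG1-only-specific and 8.33% of STAG2-only-specific peaks. Those classes are largely other peaks, most with a counterpart in the other full list. The change of sign therefore does not check the direction for the deposited lists, which was not tested otherwise against list length.

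The same shares were read in wild-type lists of other cell types, which come from another cell line, BVSC. These were ESC (pluripotent stem cells), EpiLC (cells resembling the epiblast) and the germ cell-like stages d2PGCLC and d4c7PGCLC. For the same antibody, the mean overlap was far higher there than in GSC. EpiLC Stag2 lists overlapped 70.4% ± 1.02 of STAG1-only-specific and 66.9% ± 0.367 of STAG2-only-specific peaks (SD, n = 2 each), and ESC Stag2 lists 59.1% ± 0.850 and 58.3% ± 0.138. These ESC and EpiLC Stag2 lists are also longer, with 70828 to 82326 peaks. Shared peaks of the STAG1-only list overlapped them more often than both list-specific classes, with means of 87.4% (EpiLC) and 82.2% (ESC). EpiLC Stag1 lists gave the lowest means of the list-specific classes, 14.9% and 13.8%. STAG1-only-specific peaks had the higher share in all 8 ESC and EpiLC lists, by 0.230 to 4.00 points. They had the lower share in all 10 PGCLC lists, with differences of −6.53 to −1.54 points. The differences were small in ESC (0.230 to 1.24) and for Stag1 in EpiLC (1.01 to 1.32) and d4c7PGCLC (−1.55 to −1.54). No counting interval was computed for them, so their signs alone carry little weight. This split of cell types was seen in the values and was not tested. Among the lowest 25% of each list alone, the second ESC Stag1 list gave 25% and 25.1%, so the direction did not hold in that list. With CTCF lists of equal length, the mean difference turned to −6.29 points for Stag1 and −6.02 for Stag2 in ESC and to −0.407 for Stag1 in EpiLC, and it was 0.0119 for Stag2 in EpiLC. In the PGCLC stages it kept its direction and lay between −15.0 and −6.82.

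**Figure D4:**
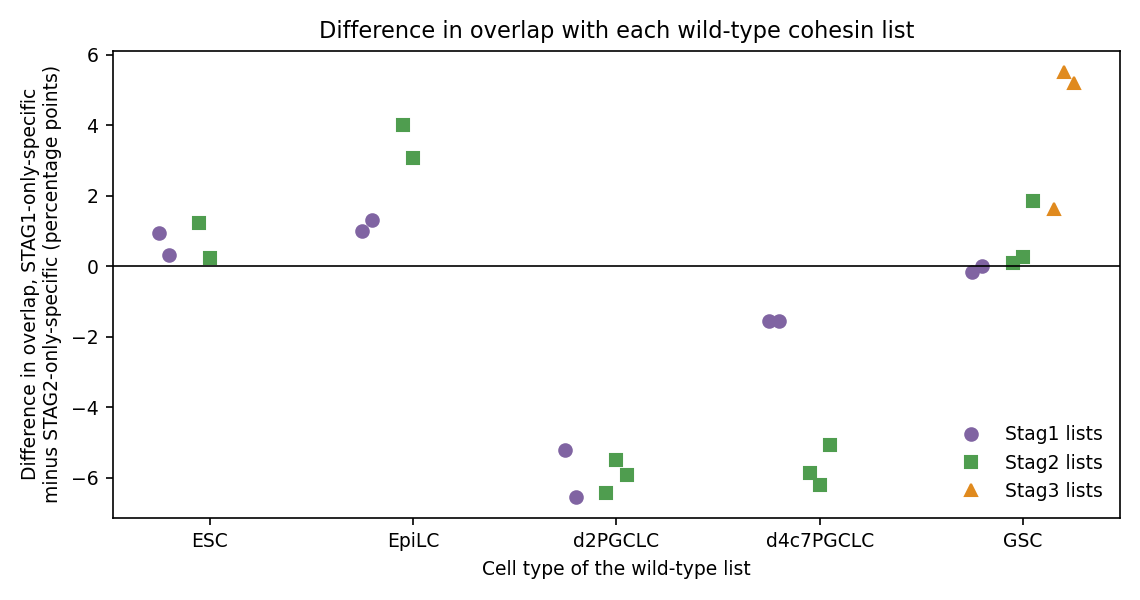
Difference in overlap between STAG1-only-specific and STAG2-only-specific CTCF peaks (y axis, percentage points, positive where the STAG1-only-specific share is higher) for each wild-type list, by cell type (x axis) and antibody (colour and shape). The 8 ESC and EpiLC points lie above 0 and the 10 PGCLC points below it. No counting interval is drawn.

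List-specific peaks were spread over all chromosomes. Their share lay between 5.09% (chromosome 7) and 7.31% (chromosome 18) in the STAG1-only list, and between 3.12% (chromosome 11) and 5.51% (chromosome 1) in the STAG2-only list. Chromosomes 1 and 16 had close values in both lists, 6.46% and 5.51%, and 5.76% and 5.45%, while chromosome 9 had 6.27% and 3.19%. Most list-specific peaks stood alone between shared ones: 2117 of 2495 and 1426 of 1540. In the STAG1-only list 158 runs held 2 neighbouring list-specific peaks, 14 held 3 and 5 held 4, and in the STAG2-only list 54 held 2 and 2 held 3. Among the runs of 4 STAG1-only-specific peaks was 1 of 279 kb at Nrg1, a growth factor gene (chr8:31723165-32002391), 1 of 584 kb among vomeronasal receptor genes (chr7:42692912-43276452) and 1 of 509 kb among Pramel genes (chr5:93948341-94457756). The Npbwr1 peak named above belonged to a run of 3 over 13.3 kb. Read mapping in repeated gene families was not checked.

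**Figure D5:**
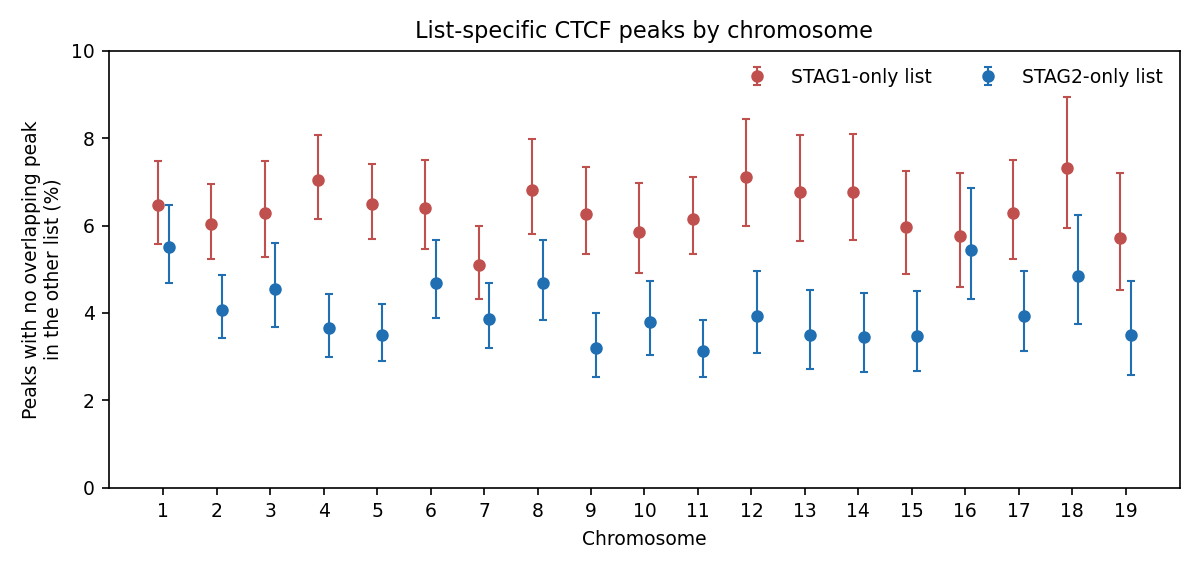
Share of CTCF peaks with no overlapping peak in the other list (y axis, %) by chromosome (x axis) for the STAG1-only list (red) and the STAG2-only list (blue), with 95% Wilson intervals that cover counting error only. STAG1-only values lie between 5.09% and 7.31% and STAG2-only values between 3.12% and 5.51%.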

How the data were processed

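ChIP-seq peak lists were used as the authors deposited them: 4 CTCF lists of mutant GSC and 26 wild-type lists of Stag1, Stag2 and Stag3. Per the submitters' processing notes, the tools included MACS2, deepTools 3.5.0, Bowtie2 2.3.4.1, Trim Galore 0.4.1, SAMtools 1.7, cutadapt 1.9.1 and bedtools 2.29.2, on mm10 and GRCm38.p3. Options and control libraries are not given in the sources used. The deposited columns are fold enrichment, a linear ratio per peak, −log10 of a q-value (and of a p-value, not used) and a score. Per the peak names and labels, CTCF lists were called on 2 pooled libraries and the others per library. Depth is unknown, so no interval needs or uses it.

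Peaks of chromosomes 1 to 19 sharing at least 1 bp were counted as overlapping. Python 3.11.15, numpy 2.4.6, pandas 2.3.3 and scipy 1.17.1 were used, and the overlap code was tested on simulated peaks and against bedtools 2.31.1. Genes and promoters came from RefSeq tables of GRCm38.p6, and 16456 of 20661 protein-coding genes were matched in the promoter table. Shares carry 95% Wilson intervals, and differences over wild-type lists were tested with exact permutation tests. Nothing in the labels ties replicates to separate cultures, so those p-values reflect the spread between libraries, which may be technical.

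Genes were named by these rules: for each direction the 12 list-specific gene-end peaks and the 3 distal ones of highest fold enrichment, up to 4 genes of each of 13 lists with an end peak in 1 CTCF list alone (olfactory receptor genes by count), and the cohesin genes with Ctcf. Of the distal peaks, 1 (that of highest fold enrichment in the STAG2-only list) is not reported here. The runs, chromosomes and promoters named were chosen after their values were seen. The classes and lists were chosen with earlier results of these data known. Alternatives were a reciprocal overlap of 50%, a gap of 500 bp, −log10 q of at least 5, lists of equal length, gene-end windows of 1000 bp, start-site windows, an overlap of 50% with the wild-type lists, and leaving out each wild-type list.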

Additional observations from a re-analysis of the deposited data

Results flagged for a closer look

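The overlap with wild-type lists of other cell types differed in direction between stages. STAG1-only-specific minus STAG2-only-specific, the mean difference over Stag1 lists was 0.639 points in ESC and 1.16 in EpiLC, against −5.87 in d2PGCLC and −1.54 in d4c7PGCLC. Over Stag2 lists it was 0.734 in ESC and 3.54 in EpiLC, against −5.95 in d2PGCLC and −5.71 in d4c7PGCLC. It stands out because every list of the first pair of cell types moved one way and every list of the second pair the other. Several of these means are small, and no counting interval was computed for the differences. With CTCF lists of equal length, whose list-specific peaks are largely other peaks, this split was not seen. The means turned to −6.29 (Stag1) and −6.02 (Stag2) in ESC and −0.407 (Stag1) in EpiLC, and EpiLC Stag2 came to 0.0119. The PGCLC means stayed negative. The difference between the cell types was not tested. All of these lists were compared with the same CTCF peaks, so the values of different lists are not independent.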

How the results depend on the processing

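A reciprocal overlap of 50% gave list-specific shares of 6.58% and 4.37%, put 44.0% of STAG1-only-specific peaks in the STAG3-only list, and put 62.5% and 66.7% of STAG2-only-specific peaks in the Stag3KO and STAG3-only lists. With lists of equal length, 4.30% and 4.22% of peaks were list-specific, shares that are close by the construction of this setting. Of the STAG1-only-specific peaks, 15.0% then lay at gene ends, 99.5% in the Stag3KO list and 81.0% in the STAG3-only list, with 210 genes having a STAG1-only end peak alone. Of the STAG2-only-specific peaks, 99.0% then lay in the Stag3KO list, 96.7% in the STAG3-only list and on average 8.33% in the Stag3 lists. The same setting changed the Stag3KO minus STAG3-only gap to 18.5 points for STAG1-only-specific peaks, and it turned 6 differences: the gap for STAG2-only-specific peaks (2.31), the gene-end difference (−2.74), the GSC Stag3 difference (−1.46), and those for ESC Stag1 (−6.29), ESC Stag2 (−6.02) and EpiLC Stag1 (−0.407). By its construction this setting leaves out the weakest peaks, where list-specific peaks lay. Most of its own list-specific peaks had a counterpart in the other full list, so it does not check the classes described above. Gene-end windows of 1000 bp held 13.1% and 10.8% of list-specific peaks, and windows of 2500 bp around start sites, chosen after seeing the data, 16.2% and 14.3%. The other 78 of the 100 re-computed main values stayed within their counting interval, 1 SD over lists or 1.5 times the count. They include all those with −log10 q of at least 5 and with a gap of 500 bp. Without each Stag3 list in turn, the Stag3 mean was 7.66% to 12.1% for STAG1-only-specific and 4.09% to 6.79% for STAG2-only-specific peaks, and their difference 3.41 to 5.36 points. No paired analysis was possible because each CTCF genotype has 1 pooled list, so replicate numbers pair nothing between the genotypes. Differences between both classes were taken within each wild-type list. Among limits, list length moves with unknown depth, 1 pooled list per genotype gives no replicate error, and no genome was used, so peaks outside promoters were not read for sequence. Genotype, line history and list length cannot be told apart.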
